A study of Homo sapiens with 3 samples.

Results

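On the long arm of human chromosome 17, at 17q11, 10 genes that lie close together were described by the promoter contacts of their starts: SNORD4A, TRAF4, SUPT6H, SDF2, FLOT2, PROCA1, RAB34, TLCD1, NEK8 and ERAL1. The annotated starts of these genes that fell on promoter fragments lay on 9 of them, out of 18415 promoter fragments in all. For SNORD4A, TLCD1 and RAB34 these were all the annotated starts, but for SUPT6H they were 2 of 12, for SDF2 4 of 10, for FLOT2 5 of 9, for ERAL1 5 of 8, for TRAF4 10 of 16, for NEK8 7 of 8 and for PROCA1 10 of 11. The 10 genes were chosen by the scores and the number of their contacts, which formed one densely connected group in these same replicates, so the number and strength of the contacts below are descriptions and carry no test. Promoter capture Hi-C (PCHi-C) was run on hESC-CMs, heart muscle cells that were differentiated from WA09 (H9), a human embryonic stem cell line, in 3 biological replicates. All 3 were of 1 condition, with no untreated or undifferentiated control among them, and came from 1 cell line. The cells had been enriched in medium with lactate in place of glucose and checked for purity, short of a pure culture, with the cardiac genes MYH7 and TNNT2. No expression was measured in these files, so the cell type could not be checked against its markers here, and a share of other cells cannot be told apart from cardiomyocytes in a contact map of bulk chromatin.

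In PCHi-C, chromatin is crosslinked, cut with the restriction enzyme HindIII and ligated, so that DNA pieces that lay near each other in the nucleus become joined, and products carrying a promoter are then captured. Each contact pairs a promoter fragment with a promoter-interacting fragment (PIR), and its CHiCAGO score grows with the excess of read pairs over what distance and technical noise predict. The deposited lists start at a score of 5, so a contact missing from a replicate had a score under 5 or none, and its absence was not shown. Replicates were taken to share a contact when the coordinates of both fragments matched, whichever was listed first.

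The 10 genes have varied roles. SNORD4A is a C/D box small nucleolar RNA, a class that guides 2′-O-methylation of ribosomal RNA, and it lies within an intron of RPL23A, which encodes a protein of the large ribosomal subunit. TRAF4 is an adaptor of the TNF receptor-associated factor family. SUPT6H is a histone chaperone that travels with elongating RNA polymerase II, SDF2 is a protein of the endoplasmic reticulum, and FLOT2 is a flotillin, a scaffold of membrane microdomains. RAB34 is a small GTPase with roles in lysosome positioning and cilium formation, NEK8 is a kinase of the primary cilium, TLCD1 is a membrane protein that affects phospholipid composition, ERAL1 is a GTPase needed to assemble the small subunit of the mitochondrial ribosome, and PROCA1 is named for an interaction with cyclin A1.

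In order along the chromosome (GRCh37), the fragments were those of SUPT6H and SDF2, which have starts on opposite strands of one fragment of 397 bp (chr17:26989146-26989542), PROCA1 (chr17:27033623-27039526), RAB34 (chr17:27039527-27046827), SNORD4A (chr17:27048612-27049990), TLCD1 with part of the NEK8 starts (chr17:27049991-27055527), NEK8 alone (chr17:27055528-27056006), TRAF4 (chr17:27068736-27072847), ERAL1 (chr17:27164048-27182836) and FLOT2 (chr17:27218242-27229174). The canonical start of SDF2 (position 26988924) lies outside the SUPT6H/SDF2 fragment, so the contacts of that fragment do not cover that start. The TLCD1/NEK8 fragment also held starts of RPL23A, SNORD42A and SNORD4B, the ERAL1 fragment a start of FAM222B, and the FLOT2 fragment a start of DHRS13. Contacts of these fragments cannot be assigned to one gene. A fragment with starts of RPL23A and SNORD42B (chr17:27046828-27048611) lies between the RAB34 and SNORD4A fragments. It belongs to no member gene and is used below for comparison.

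The SNORD4A gene (chr17:27049600-27049671, plus strand of GRCh37) is the only gene with a symbol that has an annotated start on its fragment. It is shown whole, because a snoRNA start inside a host intron marks the member fragment with the most contacts. The capitals mark the letters of its C box (TGATGA) and of its D and D′ boxes (CTGA), found by a letter search.
SNORD4A: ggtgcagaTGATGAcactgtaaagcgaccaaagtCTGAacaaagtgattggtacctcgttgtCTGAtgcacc

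All 9 promoter fragments were ordinary HindIII fragments with a recognition site at both ends, but their base composition varied. The NEK8 fragment, at 479 bp, had 65.6% GC and 91.9 CpG per kb, the 99.2 and 99.6 percentiles of all promoter fragments. The SUPT6H/SDF2 fragment had 63.2% GC and 80.6 CpG per kb (98.1 and 99.1 percentiles), and the TRAF4 fragment had 62.1% and 48.6 (97.3 and 92.6). The medians over all 18415 promoter fragments were 46.5% and 19.1, and the other 6 member fragments had from 49.6% to 56.4% GC. The NEK8 and SUPT6H/SDF2 fragments were short, at the 0.548 and 0.342 percentiles of length, against a median of 6657 bp. In windows of equal length, 300 bases around the canonical start, the percentiles of GC and CpG were lower. NEK8 was at 59.96 for GC and 74.8 for CpG, SUPT6H at 37.3 and 56.3, and SDF2 at 23.4 and 41.4. TRAF4 was at 81.8 and 85.2. Base composition was not used to choose the genes. Its part in the contact counts was not tested.

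In windows from 250 bases before to 50 after the canonical start of each protein-coding member, the GC box GGGCGG was found on either strand in 8 of 9 promoters, against 61.5% of 19811 protein-coding promoters of the genome. SDF2 was the exception. TLCD1 held 6 copies on its own strand, RAB34 held 4 and TRAF4 held 2 on each strand. Of the cardiac motifs searched on both strands, the GATA motif AGATAA was found in 1 member promoter, that of PROCA1 (7.14% of all promoters), while the T-box motif AGGTGTGA (0.954%) and the MEF2 letters TATTTTTA (1.58%) were found in 0 of 9. The letters AGGGGGC, part of the CTCF motif, were in 0 of 9 against 18.9% of all promoters. These are matches of letters in a window and say nothing of binding. The 250 bases before the NEK8 start (chr17:27055556-27055805, plus strand) and before the TRAF4 start (chr17:27070779-27071028, plus strand) are shown because both fragments are rich in CpG and had recurrent contacts. The capitals mark GC boxes on either strand.
NEK8: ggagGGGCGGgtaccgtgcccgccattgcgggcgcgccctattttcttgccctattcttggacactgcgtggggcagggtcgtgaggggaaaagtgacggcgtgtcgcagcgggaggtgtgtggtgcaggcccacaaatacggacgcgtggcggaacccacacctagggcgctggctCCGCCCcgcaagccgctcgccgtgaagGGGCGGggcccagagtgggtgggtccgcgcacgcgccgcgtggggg
TRAF4: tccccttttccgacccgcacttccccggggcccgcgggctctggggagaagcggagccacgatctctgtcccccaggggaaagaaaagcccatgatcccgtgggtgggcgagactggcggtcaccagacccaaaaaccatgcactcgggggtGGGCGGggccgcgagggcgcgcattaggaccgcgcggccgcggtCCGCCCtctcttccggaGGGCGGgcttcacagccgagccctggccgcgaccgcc

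The 3 replicates were of like size over the whole series, with 112473, 109731 and 110740 calls and median scores of 6.63, 6.64 and 6.65. The member fragments had 156 contacts in replicate 1, 148 in replicate 2 and 173 in replicate 3 (159 ± 12.8, SD, n = 3). Their union held 244 contacts, made up of 98 found in all 3 replicates, 37 found in 2 and 109 found in 1. The share called in all 3 was 40.2% (95% exact binomial interval 34.0 to 46.6%, counting error only), against 24.0% of all 200587 contacts of the series. Of the same 244 contacts, 40 (16.4%, interval 12.0 to 21.6%) joined the fragment to another promoter fragment, against 9.05% in the series. Both intervals treat the contacts as independent, but adjoining fragments share partners, so the intervals may be too narrow. Since density was what selected the genes, these shares are given beside the background and nothing is drawn from the gap.

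Among the member fragments, that of SNORD4A had the most contacts, with 34, 33 and 39 in replicates 1, 2 and 3 (35.3 ± 3.21, SD, n = 3), 45 in the union and 27 in all 3. The TLCD1/NEK8 fragment followed, with 27, 27 and 32, and its range did not overlap that of SNORD4A. The NEK8 fragment had 25, 20 and 29 contacts, within reach of both the TLCD1/NEK8 fragment above it and the TRAF4 fragment below it. Of all promoter fragments, 18415 in number, the median had 7 contacts in the union (interquartile range 3 to 14) and 1 in all 3 (0 to 3). The SNORD4A fragment was at the 98.9 percentile of contacts in all 3, TLCD1/NEK8 at 97.8 and NEK8 at 96.2. The RPL23A/SNORD42B fragment, which belongs to no member gene, had 52 contacts in the union, more than SNORD4A, and 23 in all 3.

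TRAF4 had 17, 20 and 22 contacts, of which 12 recurred in all 3 replicates. FLOT2 had 20, 17 and 19, with 13 recurrent, and these fragments overlapped in number. RAB34, with 20, 12 and 16 contacts, overlapped both in single replicates but had 7 contacts in common to all 3, out of 33 in the union. PROCA1 varied most in proportion among the fragments with recurrent contacts. It had 8, 17 and 10 contacts, and 4 of 24 recurred. Without replicate 2 its union fell from 24 to 13, and without replicate 1 that of RAB34 fell from 33 to 21.

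ERAL1 and the SUPT6H/SDF2 fragment stood at the low end. ERAL1 had 8, 6 and 7 contacts, below the counts of FLOT2, TRAF4 and the fragments around SNORD4A in every replicate, with 3 of 10 called in all 3. SUPT6H and SDF2 had 5, 1 and 5 contacts, and 0 of the 10 in their union were called in all 3 replicates. Just 1 of them, with the RPL23A/SNORD42B fragment at 58.4 kb, was called in more than 1 replicate, scoring 5.49 in replicate 1 and 5.09 in replicate 3. The union of this fragment fell to 6 without replicate 1 and also without replicate 3. The label of a connected cluster was therefore not borne out for SUPT6H and SDF2 by contacts called in all 3 replicates.

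**Figure D1:**
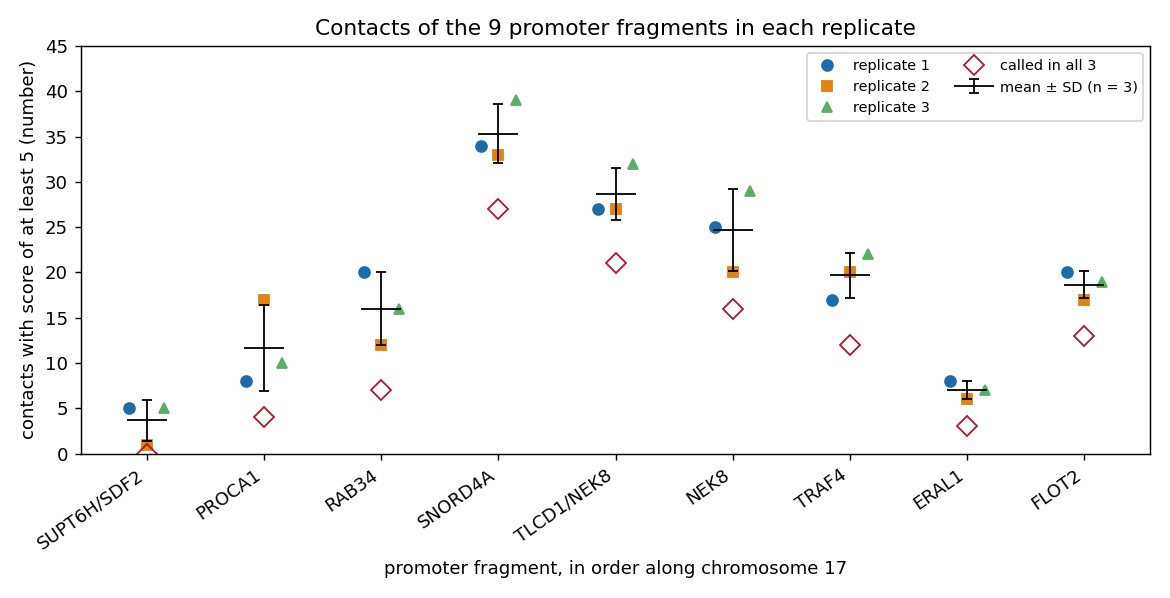
Number of contacts with a CHiCAGO score of at least 5 for each of the 9 promoter fragments, in order along chromosome 17. Filled symbols are the 3 replicates, the horizontal bar and whiskers are the mean ± SD (n = 3), and open diamonds are the contacts called in all 3. SNORD4A is highest, at 33 to 39, and SUPT6H/SDF2 lowest, at 1 to 5.

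The contacts were short and one-sided. The median distance between fragment midpoints was 214 kb over the 241 contacts within chromosome 17, against 716 kb over all same-chromosome contacts of the series. All 45 partners of the SNORD4A fragment and all 38 of the TLCD1/NEK8 fragment lay at higher coordinates. So did 37 of 38 for NEK8, 28 of 32 for RAB34, 21 of 23 for PROCA1 and 26 of 28 for TRAF4. FLOT2 pointed the other way, with 25 partners at lower coordinates and 2 at higher ones, and all 13 of its recurrent contacts lay lower. ERAL1, between them, had 6 partners on the higher side and 4 on the lower, all within 92.5 kb.

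**Figure D2:**
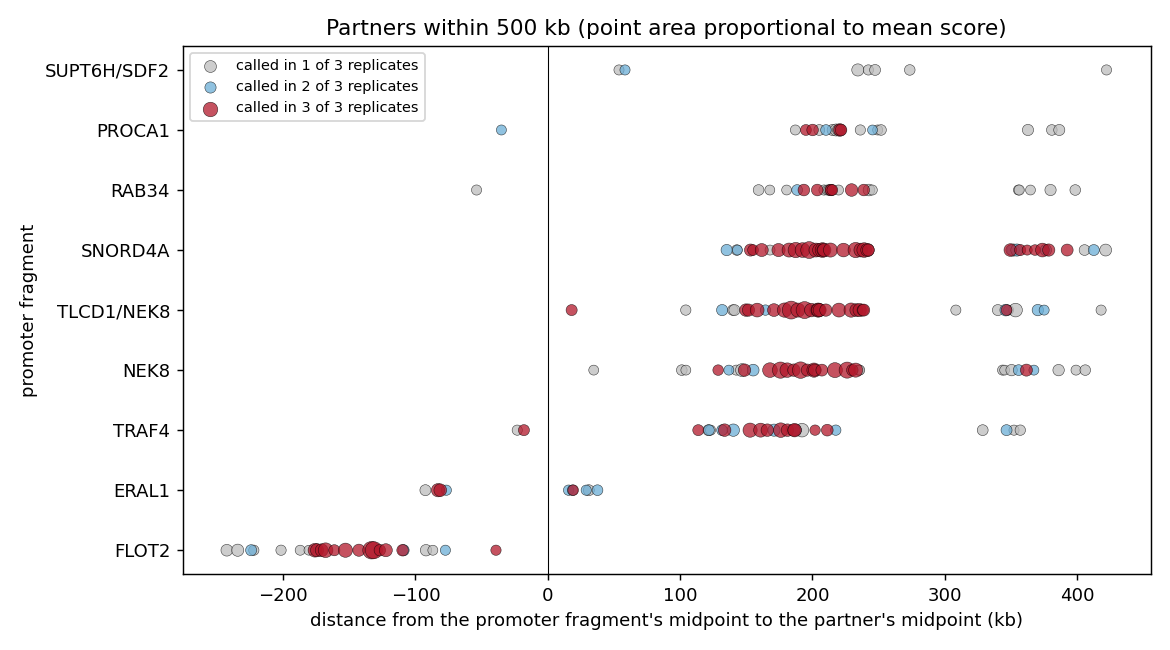
Partners within 500 kb of each promoter fragment, plotted by the distance between midpoints in kb. Negative values are lower coordinates, the point area is proportional to the mean score, and red, blue and grey mark calls in 3, 2 and 1 replicates. Partners of the fragments from PROCA1 to TRAF4 lie mainly at 100 to 250 kb on the higher side, and those of FLOT2 on the lower side.

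The fragments from PROCA1 to TRAF4, 6 in number, had 205 contacts between them, and 86 were called in all 3 replicates. Of these 86, 68 (79.1%) had a partner with its midpoint in the stretch of 127 kb from FLOT2 to SEZ6 (chr17:27206353-27333458). In single replicates that stretch held 81, 81 and 88 of their contacts. It consists of 26 HindIII fragments, of which 18 were recurrent partners. The stretch of like length just before it, 128 kb from the end of TRAF4 to FLOT2 with 29 HindIII fragments, lies nearer and covers FAM222B and ERAL1. It held 14, 12 and 22 contacts in the 3 replicates and 8 recurrent ones, with 3 partner fragments. After SEZ6, the 64.7 kb up to MYO18A held 2 contacts, 1 each in replicates 1 and 2, and 0 recurrent ones. These stretches follow gene ends and were chosen with the contacts known, so their counts are descriptions.

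PHF12, which encodes a PHD-finger protein that acts in transcriptional repression, was the gene body met most often. It overlapped the partner in 52 of the 98 recurrent contacts, through 12 partner fragments and with 6 of the member fragments. SNORD4A had 12 of these contacts, TLCD1/NEK8 had 11, NEK8 had 10, TRAF4 had 8, RAB34 had 7 and PROCA1 had 4. Those 7 and 4 were all the recurrent contacts of RAB34 and PROCA1. PIPOX, which encodes a peroxisomal oxidase, was met by 20 recurrent contacts, and SEZ6, a neuronal membrane protein gene that overlaps it, by 15. A fragment can overlap several of these genes.

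**Figure D3:**
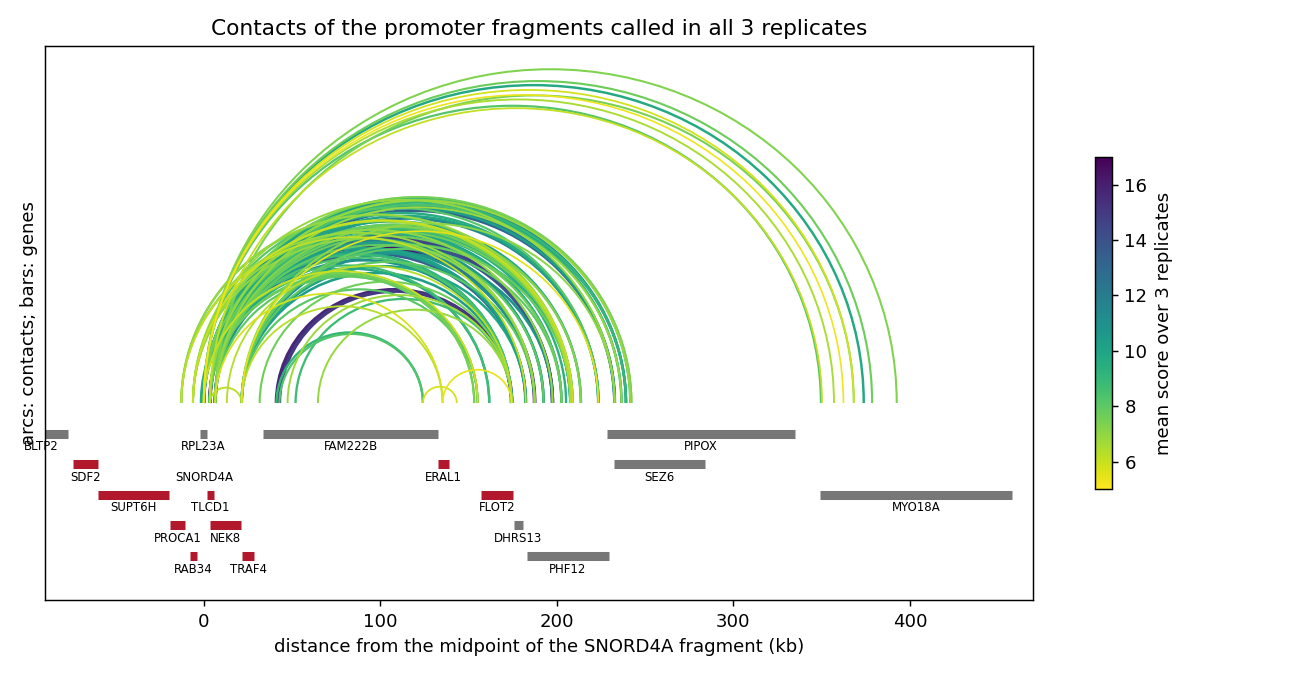
Contacts of the member fragments called in all 3 replicates, drawn as arcs between fragment midpoints. The horizontal axis is the distance in kb from the midpoint of the SNORD4A fragment, the colour and width of an arc follow the mean score over 3 replicates, and bars are genes, with member genes in red. Arcs from the left group end mostly at 153 to 242 kb, over FLOT2, DHRS13, PHF12 and the lower-coordinate end of SEZ6. SEZ6 is on the minus strand, so that end is not where the gene begins. A smaller set ends in MYO18A.

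The highest mean score was that of the TLCD1/NEK8 fragment with a fragment over PHF12 exons (chr17:27234185-27239293), 184 kb away. It scored 17.27, 17.32 and 14.58 in replicates 1, 2 and 3 (16.4 ± 1.57, SD, n = 3). The same PIR was called in all 3 replicates with PROCA1, RAB34, SNORD4A, NEK8 and TRAF4 as well. With SNORD4A it scored 11.12, 11.59 and 13.45, and with TRAF4 7.18, 8.70 and 8.20, so the TLCD1/NEK8 scores lay above both in every replicate.

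A second fragment of PHF12 (chr17:27244308-27249434) was the best recurrent partner of 3 members. With SNORD4A it scored 15.42, 11.03 and 16.99 (14.5 ± 3.09). With NEK8 it scored 12.85, 14.40 and 14.39 (13.9 ± 0.892), and with TRAF4 10.84, 10.36 and 11.46 (10.9 ± 0.551). The spread for SNORD4A covered the whole NEK8 range, so the order of these contacts by score is not settled. With TLCD1/NEK8 the fragment scored 16.24, 15.18 and 12.69, which also overlapped SNORD4A and lay above TRAF4 throughout.

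The best recurrent contacts of PROCA1 and RAB34 were also over PHF12, at higher coordinates. The best contact of PROCA1 was with a small intronic fragment of PHF12 at 221 kb, which scored 10.18, 6.39 and 8.12. That of RAB34 was with a fragment of 11778 bp that holds starts of PHF12 and PIPOX, at 230 kb, with 7.76, 7.29 and 9.40. Both ranges overlapped those of the nearer PHF12 fragment at chr17:27234185-27239293. It scored 5.39, 5.64 and 9.57 with PROCA1 and 6.18, 7.10 and 7.72 with RAB34. The place of their best partner along PHF12 is therefore not settled. The small fragment (chr17:27257279-27257429) and the fragment at chr17:27234185-27239293 were the recurrent partners of most member fragments, 6 each. Over the union, the second was a partner of 7 member fragments, as were the DHRS13 and FLOT2 fragments. The small one lies within an intron of PHF12, overlaps no exon and was called with TLCD1/NEK8 at 8.42, 9.76 and 11.60, with TRAF4 at 8.39, 10.68 and 8.92, and with SNORD4A at 6.75, 7.56 and 8.72, ranges that overlap. Its 151 bases are shown on the plus strand of GRCh37 as a PIR common to 6 promoter fragments, with what remains of the cut HindIII sites at its ends in capitals.
PIR in PHF12: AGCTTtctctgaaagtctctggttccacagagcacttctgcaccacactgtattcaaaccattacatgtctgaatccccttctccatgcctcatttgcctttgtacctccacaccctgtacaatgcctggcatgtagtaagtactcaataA

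**Figure D4:**
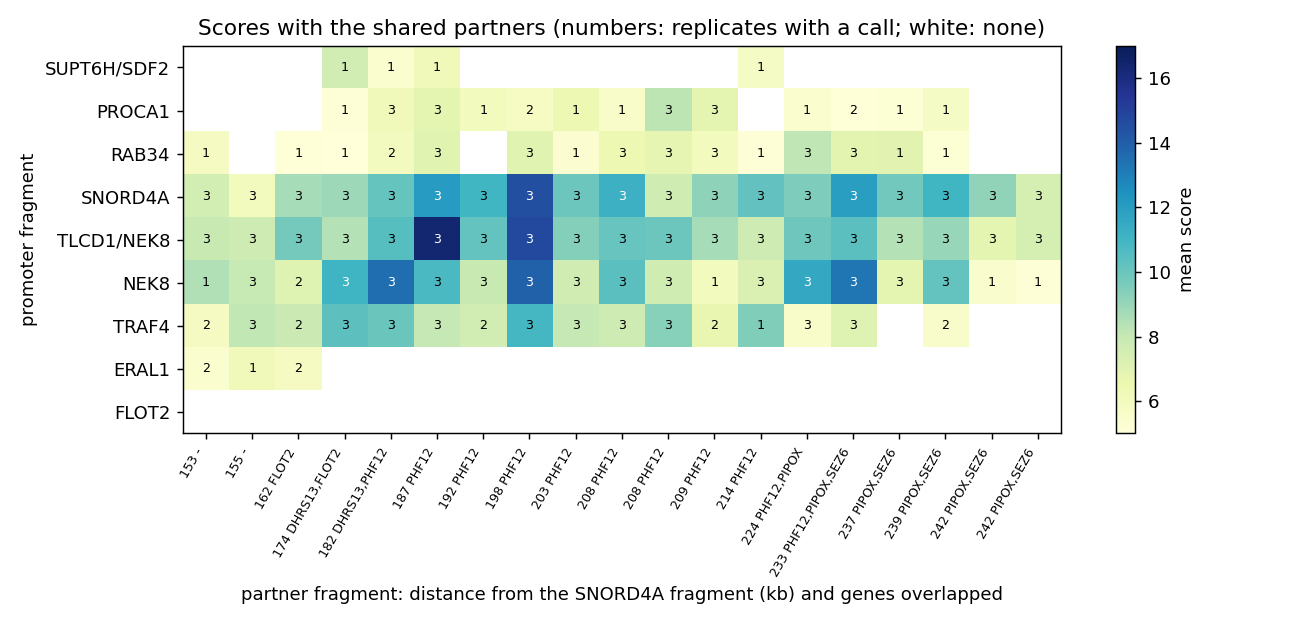
Mean CHiCAGO score of each promoter fragment with the partner fragments at 153 to 242 kb from SNORD4A that at least 2 member fragments contacted in all 3 replicates. Columns are ordered by distance from the SNORD4A fragment in kb, with the genes they overlap, the printed number is the count of replicates with a call, and white means none. The row of TLCD1/NEK8 holds the darkest cell, at a mean of 16.39, and FLOT2, itself one of the columns, has none of these partners.

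Some promoter fragments were recurrent partners of several members. Partners that hold a start but were never listed first are not counted as promoter fragments, among them that of PHF12 at chr17:27244308-27249434. The DHRS13 fragment (chr17:27229175-27234184), which carries a start of a short-chain dehydrogenase gene, was a recurrent partner of 5 members. With NEK8 it scored 13.21, 10.20 and 17.06, a wide range, with TLCD1/NEK8 10.35, 9.11 and 11.97, and with TRAF4 8.57, 10.67 and 10.69. These ranges overlapped. PROCA1 met it at 5.91, 6.00 and 6.49, below the other 4 in all 3 replicates.

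The fragment with starts of PHF12, PIPOX and SEZ6 (chr17:27278716-27285365) was likewise a recurrent partner of 5 members. NEK8 met it at 14.50, 11.26 and 14.01 and SNORD4A at 12.22, 11.51 and 12.18 (12.0 ± 0.399), values that overlap. TRAF4 at 7.76, 6.05 and 7.39 and RAB34 at 7.84, 6.36 and 6.56 lay below them in every replicate. MYO18A, which encodes an unconventional myosin, supplied another promoter partner (chr17:27414284-27420814). This fragment holds a start inside the gene and does not reach the end where this minus-strand gene begins. NEK8 met it at 362 kb with 7.75, 6.72 and 7.89, and SNORD4A at 368 kb with 5.54, 6.46 and 5.45.

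Contacts between member fragments numbered 9, of which 5 were called in all 3 replicates. FLOT2 took part in 4 of these. It was called with NEK8 at 11.26, 9.64 and 12.26, with TRAF4 at 9.51, 11.42 and 10.00, with SNORD4A at 10.50, 7.57 and 8.58, and with TLCD1/NEK8 at 10.46, 7.41 and 7.34. All 4 span 153 to 174 kb, and their ranges overlap. The fifth joined TLCD1/NEK8 to TRAF4 at 18.0 kb, with 6.78, 6.78 and 5.33. The remaining 4 were single calls, among them FLOT2 with PROCA1 at 5.18 and with SUPT6H/SDF2 at 7.59, both in replicate 1.

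FLOT2 met the cluster from the other end. Its strongest contacts were with 2 adjoining fragments of FAM222B, at 133 and 132 kb. The first (chr17:27089079-27091912) scored 16.94, 16.33 and 13.85 (15.7 ± 1.64, SD, n = 3), and the second (chr17:27091913-27092444) scored 13.06, 16.30 and 15.81. Of its 13 recurrent contacts, 6 had a partner over FAM222B, 4 over NEK8 and 3 over RPL23A. The RPL23A/SNORD42B fragment was among them, at 8.38, 10.65 and 9.83.

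The same FAM222B fragments were the best recurrent partners of ERAL1, at 83 and 81 kb. The first scored 8.59, 9.49 and 9.12 with ERAL1, below its scores with FLOT2 in every replicate. The second scored 9.67, 7.88 and 7.30, again below FLOT2 throughout. The third recurrent contact of ERAL1 was at 19.2 kb, outside any protein-coding gene, with 5.15, 6.15 and 6.08. ERAL1 had 0 contacts with another member fragment, and its own fragment of 18789 bp is longer than 93.4% of promoter fragments.

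**Figure D5:**
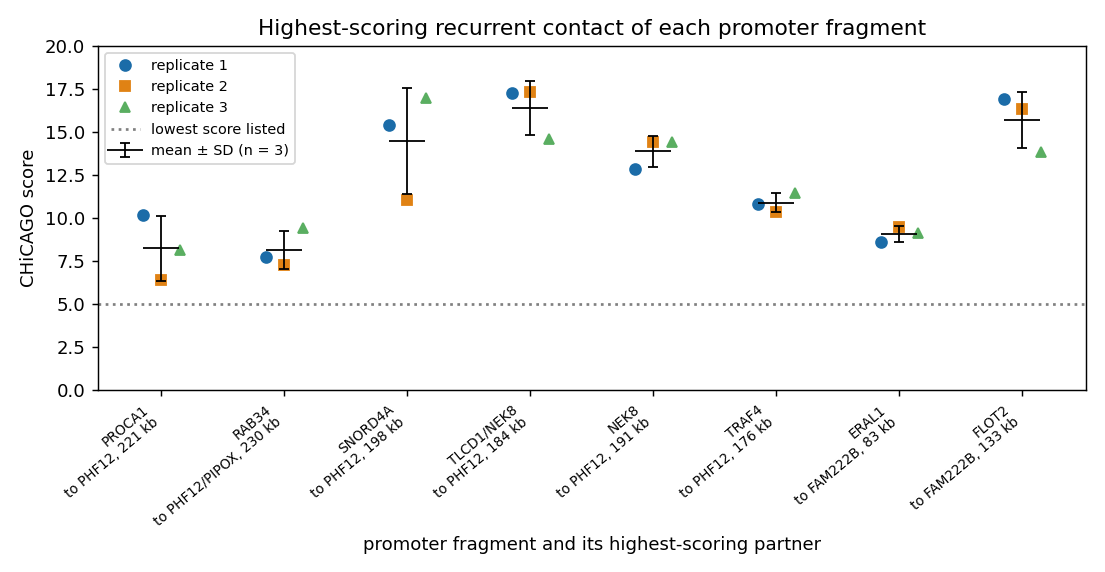
CHiCAGO score in each replicate of the recurrent contact with the highest mean score, for the 8 member fragments with a contact called in all 3. The bar and whiskers are the mean ± SD (n = 3) and the dotted line is the lowest score listed. TLCD1/NEK8 and FLOT2 reach means of 16.39 and 15.7, and PROCA1, RAB34 and ERAL1 lie between 6.39 and 10.18.

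Neighbouring fragments shared much of their partner list. Of the recurrent partners of SNORD4A, 19 of 27 (70.4%) were also recurrent partners of TLCD1/NEK8, and these were 90.5% of the 21 of TLCD1/NEK8. NEK8 shared 15 with SNORD4A, 93.8% of its own 16 and 55.6% of those of SNORD4A. TRAF4 shared 10 of its 12 with SNORD4A. All 4 of PROCA1 and all 7 of RAB34 were in the SNORD4A list. FLOT2 shared 0 with SNORD4A and 2 with ERAL1, which were 66.7% of the 3 of ERAL1. Adjoining fragments lie near each other in the nucleus in any cell, so their lists are not independent measurements.

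MYO18A was where SNORD4A differed from the fragment that adjoins it. With partners whose midpoint lay in MYO18A, SNORD4A had 11, 9 and 12 contacts in the 3 replicates and 7 recurrent ones. TLCD1/NEK8 had 2, 4 and 6 contacts there and 1 recurrent one, and its range did not overlap that of SNORD4A. NEK8 had 5, 5 and 3, with 1 recurrent. On the other flank, the RPL23A/SNORD42B fragment had 10, 6 and 11, with 4 recurrent, a range that overlapped SNORD4A. The strongest of the SNORD4A contacts in MYO18A scored 11.82, 6.89 and 10.41 at 374 kb. The longest recurrent contact of any member was also there, at 393 kb (chr17:27429982-27453770), with scores of 5.06, 7.33 and 9.62 (7.34 ± 2.28, SD, n = 3), the first close to the listing limit.

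The share of member contacts that recurred was highest between 100 and 300 kb. Between 100 and 200 kb, 44 of 75 contacts of the member fragments were called in all 3 replicates (58.7%), against 40.7% of all contacts of the series in that class. Between 200 and 300 kb it was 40 of 70 (57.1%, against 37.7%). From 300 to 500 kb it was 9 of 45 (20.0%, against 33.6%). From 50 to 100 kb it was 2 of 9 (22.2%, against 41.4%), and below 50 kb 3 of 11 (27.3%, against 44.9%). At 500 kb and more, or on another chromosome, the members had 34 contacts. Every one was called in 1 replicate, and 0 were called on the merged replicates. Over the series, 26.9% of contacts from 500 to 1000 kb were called in all 3 replicates, 14.1% of those from 1000 to 10000 kb and 2.59% of longer ones, and the members had 5, 5 and 21 contacts in these classes. The highest of these, RAB34 with the LLGL1 promoter fragment 8913 kb away, scored 11.33 in replicate 1 and was listed in neither other replicate. The same LLGL1 fragment was called with the NEK8 fragment in replicate 3, at 5.06, and had 53 contacts over the series.

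Among promoter fragments of other genes, the one whose partner list was most like that of the members was RPL23A/SNORD42B. It shared 41 of its 52 partners with the 101 fragments that any member contacted, a Jaccard index of 0.366 over the union of the replicates. The PHF12/PIPOX/SEZ6 fragment shared 29 of 33 (0.276), DHRS13 21 of 28 (0.194), MYO18A 19 of 31 (0.168) and SEZ6, from a start of its own, 7 of 7 (0.0693). All 5 lie within or at the edge of the same region. Of 37 distinct neighbouring genes that had been listed, 34 had a promoter fragment. Not counting the 5 that share a fragment with a member, 6 were called with a member in at least 1 replicate and 5 in all 3. Those 5 were SNORD42B, PHF12, PIPOX, SEZ6 and MYO18A, and the other was TP53I13, whose promoter fragment was called in replicate 2 alone. The adjoining fragment, which also holds a TP53I13 start but was never listed first, was called with TLCD1/NEK8 and TRAF4 in replicate 3. PHF12, PIPOX and SEZ6 were called through the fragment that they share. The other SEZ6 promoter fragment (chr17:27331923-27333574), where this minus-strand gene begins, was not called with a member.

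As a graph, with fragments as nodes and contacts as edges, the 20% of contacts with the highest summed score held 8 of the 9 member fragments in one connected subnetwork. It had 52 nodes, 13 of them promoter fragments, and 130 edges, an average of 5.00 edges per node. SNORD4A had 23 of these edges, RPL23A/SNORD42B 21, TLCD1/NEK8 19, the PHF12/PIPOX/SEZ6 fragment 17 and NEK8 15. By average degree it was number 4 of 2830 subnetworks, and number 13 with a score of at least 7. With a score of at least 10 the piece that held most member fragments had 5 nodes and 4 edges and was number 361. The subnetwork around MYH6, the cardiac alpha myosin heavy chain gene, had 35 nodes, 87 edges and an average of 4.97. The subnetworks with FBXL18 and ACTB (5.68) and with ANKRD35 and GNRHR2 (5.78) had higher averages. The rank varied with the replicates used. It was 10, 35 and 5 when replicates 1, 2 and 3 were each used alone, 11 without replicate 1, 2 without replicate 2 and 17 without replicate 3. With the contacts called in all 3 replicates, 58 nodes and 158 edges gave an average of 5.45 and a rank of 2 of 3031, after MYH6 at 5.60.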

How the data were processed

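PCHi-C calls from 3 biological replicates of hESC-CMs, and from the replicates merged, were used as deposited. The authors mapped reads with HiCUP to GRCh37 and scored fragment pairs with CHiCAGO, left at its default parameters. The deposited scores, at least 5 and given to 2 decimals, are the only unit used. The depth of sequencing and the read counts behind the scores were not used here.

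A promoter fragment was a fragment listed first in any replicate that held an annotated transcript start (GENCODE v44 lifted to GRCh37), 18415 of 19075. Contacts were unordered pairs in the union of the replicates, with distances between midpoints. Where a contact was listed in 1 or 2 replicates, its mean score is over those. Subnetworks were connected components ranked by average degree. Sequences were read from GRCh37. Python 3.11.15, numpy 2.4.6, scipy 1.17.1 and matplotlib 3.10.9 were used, and the code was tested on simulated data.

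With 1 condition, no group test was possible, and a sign test over 3 replicates cannot reach significance, so ranges, SDs and background shares are given. Members, named contacts (the strongest recurrent contact of each fragment, the 10 with the highest mean score, the longest recurrent one and the most shared partners), the 5 most alike promoters, motifs and neighbour genes were chosen with earlier results of these data known. The alternatives were minimum scores of 7 and 10, leaving out each replicate, merged calls, ordered pairs, 1 start per gene, member fragments listed first only, matches within 5 kb, promoter fragments without the annotation, and other sets of contacts for subnetworks.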

Additional observations from a re-analysis of the deposited data

Results flagged for a closer look

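The calls on the merged replicates, which the counts above do not use, held 160 contacts of the member fragments, and 10 of these were called in no single replicate. Their scores were low, with a median of 5.34 and a highest value of 5.68. All 98 contacts called in all 3 replicates were also in the merged calls, as were 26 of the 37 called in 2 replicates and 26 of the 109 called in 1.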

How the results depend on the processing

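The number of contacts of the member fragments, 244, was 114 with a score of at least 7, 50 with a score of at least 10 and 160 in the merged calls. It ranged from 196 to 215 with 1 replicate left out. The share called in every replicate, 40.2%, was 26.0% with a score of at least 10 and 68.4% where a partner within 5 kb counted as a match. It ranged from 51.4% to 55.1% with 1 replicate left out, where 2 calls sufficed. The share that joined 2 promoter fragments was 26.0% with a score of at least 10. The median distance, 214 kb, was 205 kb with a score of at least 7, 198 kb with at least 10, 197 kb in the merged calls and 208 kb with 1 replicate left out (207.7 to 208.1). The mean score of the 10 highest contacts, 14.1, was 19.0 in the merged calls, a different scoring of pooled reads. The average degree of the subnetwork, 5.00, was 3.47 with a score of at least 7, 1.60 with at least 10 (a piece of 5 nodes), 4.31 in the merged calls, 5.45 with the contacts called in all 3 replicates, 3.30 with the top 50% (rank 58, in a component of 28908 nodes that is no longer this cluster) and 4.62 without pairs of 2 promoter fragments. It ranged from 3.77 to 4.71 with 1 replicate left out. Counts per gene take NEK8 over both of its fragments, the one shared with TLCD1 included. With a score of at least 10 SUPT6H, SDF2 and ERAL1 had 0 contacts left, and with 1 start per gene NEK8 had 38 in place of 76. In the merged calls SUPT6H and SDF2 fell from 10 contacts to 1, ERAL1 from 10 to 3, PROCA1 from 24 to 6 and RAB34 from 33 to 18. With a score of at least 7, NEK8 over both fragments fell from 76 to 42, TRAF4 from 28 to 13 and ERAL1 from 10 to 2. In all, 31 of the recomputed counts per gene moved by more than 1.5 times and 59 did not. The listing limit of 5 bounds what can be said of weak contacts, and the depth behind a score was not analysed here. No paired analysis was possible because there was 1 group.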
